A study of Homo sapiens with 30 samples.

Results

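Transfer RNA synthetase genes were followed through the responses of a human brain endothelial cell line to inflammatory stimuli and to extracellular vesicles. The 35 genes were taken by symbol, with no measured value in the rule. They were 19 genes for cytosolic enzymes and 16 for mitochondrial enzymes (symbols ending in 2), out of 63138 genes counted. GARS1 and KARS1 each encode a cytosolic and a mitochondrial form and were counted as cytosolic. RNA came from hCMEC/D3 cells, an immortalised line of brain microvascular endothelium which serves as a laboratory stand-in for that barrier between blood and brain, in 30 libraries that form 10 groups of 3. In 5 groups the cells themselves were treated for 12 hours. Control cells had only serum-free medium, and the others had 1 agent each: the cytokines TNFα (25 ng/mL) or IL-1β (10 ng/mL), the complement fragment C5a (50 ng/mL) or the catecholamine epinephrine (200 nM). In the other 5 groups the cells were instead given vesicles enriched from the supernatants of cells treated in those 5 ways (EV-TNFα, EV-IL-1β, EV-C5a, EV-epinephrine and EV-Control), and their labels also carry 12 hours, without saying whether this is the exposure of these cells or of the cells that gave the vesicles. All libraries come from this 1 cell line and bear the same batch number. The labels do not say whether the 3 libraries of a group were separate cultures, so the p-values measure only the spread between these libraries.

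An aminoacyl-tRNA synthetase joins an amino acid to its tRNA and so supplies the ribosome. Cytosolic and mitochondrial ribosomes draw on separate sets of these enzymes, nearly all encoded by separate nuclear genes. Several cytosolic enzymes sit together in a multisynthetase complex held by the scaffold proteins AIMP1, AIMP2 and EEF1E1. Many cytosolic synthetase genes are known targets of ATF4, the transcription factor of the amino acid response, and WARS1, the cytosolic tryptophanyl-tRNA synthetase, is a classic interferon-inducible gene.

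Each library held 16643961 to 22112326 counts and 14340 to 15196 genes with at least 10 counts. Levels are in CPM, gene counts brought to a common library size with factors from trimmed means of M-values, and differences are log2 fold changes from edgeR's quasi-likelihood test, called at an adjusted p (Benjamini-Hochberg, over all genes tested) under 0.05. All 35 genes passed the filter on low counts in every fit. Of the endothelial markers 8 of 8 exceeded 1 CPM in at least 1 library, with a summed level of 598.5 to 1040.0 CPM, and those listed for pericytes, 4 of 4, summed to 705.7 to 999.6 CPM. Astrocyte markers summed to 1.40 to 5.78 CPM with AQP4 at or near 0, leukocyte markers to 0.576 to 2.26 CPM with CD68 and AIF1 at or near 0, fibroblast markers to 57.0 to 124.8 CPM with DCN and PDGFRA at or near 0, and epithelial markers to at most 0.472 CPM. The summed endothelial markers were at 928.4 to 970.9 CPM in Control, 992.6 to 1040.0 in TNFα, 697.6 to 721.7 in IL-1β, 703.6 to 731.7 in C5a, 750.5 to 821.5 in epinephrine, 598.8 to 641.8 in EV-Control and 598.5 to 715.4 in the other vesicle groups. The summed pericyte markers were at 917.0 to 987.4 CPM in Control, 968.0 to 999.6 in TNFα, 705.7 to 747.0 in IL-1β, 732.4 to 763.8 in C5a, 714.7 to 794.9 in epinephrine, 820.1 to 839.8 in EV-Control and 949.1 to 972.1 in EV-epinephrine. The fibroblast markers were at 80.8 to 95.3 CPM in EV-Control and 121.5 to 124.8 in EV-epinephrine. The part of these markers in the results below was not tested. Among pairs of libraries of a group, epinephrine replicate 2 stood apart from its fellows, with a chi-square per gene of 12.9 and 10.1 beside 5.07 between the other two, and EV-Control replicates 1 and 3 differed by 10.1. Fewer cells of a kind and less RNA per cell cannot be told apart in these bulk libraries.

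In untreated cells the cytosolic enzymes were the more abundant set. Per kilobase of exon, the highest level in Control was that of AARS1, the alanyl enzyme, at 56.1 ± 1.23 CPM per kb (SD, n = 3), followed by KARS1 (lysine) at 42.1 ± 1.36 and EPRS1, which charges both glutamate and proline tRNAs, at 41.4 ± 1.07. The cytosolic median was 26.3 CPM per kb, with a range from 4.45 (CARS1, cysteine) to 56.1, and the mitochondrial median was 4.77, with a range from 0.138 (VARS2, valine) to 35.9. Of the 19 most abundant of the 35 genes 16 were cytosolic. The exception near the top was IARS2, the mitochondrial isoleucyl enzyme, at 35.9 ± 0.399 CPM per kb, which ranked 7 of 35. Among the mitochondrial genes MARS2 (methionine, 1.64 CPM per kb), PARS2 (proline, 0.92), SARS2 (serine, 0.891) and VARS2 were the lowest, so their fold changes carry the widest errors.

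Promoter sequence was searched for the motifs that the known regulators of these genes bind. RefSeq (GRCh38.p14) gave a window from 250 bases before to 50 bases after the start for 30 of the 35 genes (39 windows, since 9 genes have a pair of starts), and the search covered both strands of 27305 genes. The amino acid response element, written TGATGNAA, occurred in 7 of 16 cytosolic genes (AARS1, CARS1, GARS1, IARS1, MARS1, NARS1 and TARS1) and 1 of 14 mitochondrial genes (YARS2), against 4.46% of all genes. The windows around 6 of these matches are shown because the same 8 letters recur in them, in capitals, and read TTGCATCA where the element lies on the opposite strand. Each is 30 bases of the gene's own strand, 5′ to 3′.
AARS1: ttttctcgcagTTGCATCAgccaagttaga
CARS1: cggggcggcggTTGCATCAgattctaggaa
IARS1: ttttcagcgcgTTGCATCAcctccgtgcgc
MARS1: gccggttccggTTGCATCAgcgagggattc
NARS1: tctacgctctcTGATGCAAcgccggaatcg
TARS1: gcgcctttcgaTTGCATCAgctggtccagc
The windows are chr16:70289675-70289704 (minus strand) for AARS1, chr11:3057407-3057436 (minus) for CARS1, chr9:92293692-92293721 (minus) for IARS1, chr12:57488053-57488082 (plus) for MARS1, chr18:57621804-57621833 (minus) for NARS1 and chr5:33440956-33440985 (plus) for TARS1. Counted with the start base as 1 and no 0, the match ran from -187 to -180 in AARS1, -2 to 6 in CARS1, -13 to -6 in IARS1, -4 to 4 in MARS1, 15 to 22 in NARS1 and 3 to 10 in TARS1.

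WARS1 was the only cytosolic gene of the 16 searched whose window matched the interferon-stimulated response element, written GAAA-NN-GAAA. That motif was found in 4.38% of all genes and, among the mitochondrial genes, in EARS2. The gamma-activated site, TTCNNNGAA, occurred in CARS1, TARS1 and WARS1 and in 2 of 14 mitochondrial genes (PARS2 and WARS2), against 9.38% of all genes. A site of the NF-kappaB type was found in RARS1 and RARS2, against 7.09% of all genes. In none of the genes with more than 1 kind of motif did the matches overlap each other. The WARS1 windows, at the second of its RefSeq starts, are shown for comparison with its response below, with the motif in capitals.
WARS1 gamma-activated site: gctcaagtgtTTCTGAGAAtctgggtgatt
WARS1 interferon-stimulated response element: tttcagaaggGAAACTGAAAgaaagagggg
They lie on the minus strand at chr14:100375470-100375499 and chr14:100375383-100375412, with the matches at -142 to -134 and -55 to -46. A match is a description of letters and was not tested as a binding site.

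TNFα raised most cytosolic synthetases and WARS1 far above the others. Of the 19 cytosolic genes 17 rose and 1 fell, and of the 16 mitochondrial genes 5 rose and 1 fell, while 27.5% of all genes tested rose and 25.3% fell. The median log2 fold change was 0.42 for cytosolic and 0.09 for mitochondrial genes, beside -0.01 over all genes. EPRS1, at 0.01, was the cytosolic gene that did not pass.

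WARS1 (chr14:100333788-100376805, GENCODE 29 on GRCh38) stood at 57.5, 58.0 and 56.8 CPM in the Control libraries and at 451.0, 466.2 and 445.7 CPM in the TNFα libraries. All TNFα libraries lay far above all Control libraries. The change was 2.98 (SE 0.052) on the log2 scale, or 7.91-fold, with an adjusted p of 1.28e-32 by edgeR's quasi-likelihood test. WDR25, which shares exon sequence with WARS1 on the other strand, stood at 3.65 CPM in Control and its log2 fold change was 0.31 (adjusted p = 0.199, same test).

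The next largest rise was that of KARS1 (chr16:75627474-75648643), the lysyl enzyme and a member of the multisynthetase complex. It stood at 167.2, 169.0 and 177.5 CPM in Control and 300.0, 311.6 and 291.7 CPM under TNFα. The groups were well apart, and the log2 fold change was 0.81 (SE 0.045, adjusted p = 1.10e-17 by edgeR's quasi-likelihood test). TERF2IP, which overlaps its exons on the other strand, moved the opposite way, with a log2 fold change of -0.19 (adjusted p = 0.0178, same test).
LARS2, the mitochondrial leucyl enzyme, was at 49.7, 48.0 and 52.7 CPM in Control and 86.7, 83.4 and 80.2 CPM under TNFα. This was the largest rise among mitochondrial genes, 0.73 (SE 0.061, adjusted p = 8.68e-13 by edgeR's quasi-likelihood test). CARS1, the cysteinyl enzyme, went from 44.9, 45.1 and 44.0 CPM to 73.4, 69.7 and 71.8 CPM, a log2 fold change of 0.68 (SE 0.06, adjusted p = 4.24e-12, same test). In neither gene did the libraries of the groups overlap. TARS1 (threonine) rose by 0.67, YARS2 (mitochondrial tyrosine) by 0.65, VARS1 (valine) by 0.60 and RARS1 (arginine) by 0.57, and the smallest rise that passed among cytosolic genes was that of IARS1 (isoleucine), 0.12.

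QARS1 (chr3:49095932-49105135), the glutaminyl enzyme of the multisynthetase complex, went against its set. It stood at 166.1, 181.1 and 175.6 CPM in Control and at 147.6, 147.2 and 157.7 CPM under TNFα. Every TNFα library lay below every Control library, and QARS1 fell by 0.21 on the log2 scale (SE 0.048, adjusted p = 0.000354 by edgeR's quasi-likelihood test). AARS2, the mitochondrial alanyl enzyme, was at 39.8, 34.0 and 34.5 CPM in Control and 32.3, 29.9 and 33.7 CPM under TNFα. It fell by 0.18 (SE 0.075, adjusted p = 0.0478, same test), a call that ended without Control replicate 1 (adjusted p = 0.350), TNFα replicate 1 (0.0802) or TNFα replicate 2 (0.220). PARS2 rose by 0.56 with an adjusted p of 0.0391, which became 0.180 without Control replicate 2, 0.122 without Control replicate 3, 0.0770 without TNFα replicate 1 and 0.290 without TNFα replicate 3. The rise of IARS1 was likewise lost without Control replicate 1 (0.0864), Control replicate 2 (0.0711) or TNFα replicate 3 (0.0945).

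The size of the TNFα response depended on how libraries were scaled. The scaling factors of the TNFα libraries were 0.842 to 0.861 and those of all other libraries 0.974 to 1.05. Scaling by total counts alone moved the median log2 fold change of all genes from -0.01 to -0.29. Then 11 cytosolic genes rose and 6 fell, and 2 mitochondrial genes rose and 8 fell. Of all 15908 genes tested 2283 rose and 7783 fell under the same scaling. WARS1 was 2.71, KARS1 0.54 and LARS2 0.46 under that scaling, and QARS1 was -0.48. With it 16 of the 35 genes had a log2 fold change above 0, in place of 28. Among the genes called before, AARS1, FARSB, GARS1, IARS1, NARS1 and SARS1 changed sign, to between -0.16 and -0.03. The calls of FARSB, SARS1, EARS2, HARS2 and PARS2 were lost. The distance between the cytosolic and the mitochondrial median stayed at 0.33 in both scalings, since a scaling factor moves all genes alike.

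**Figure D1:**
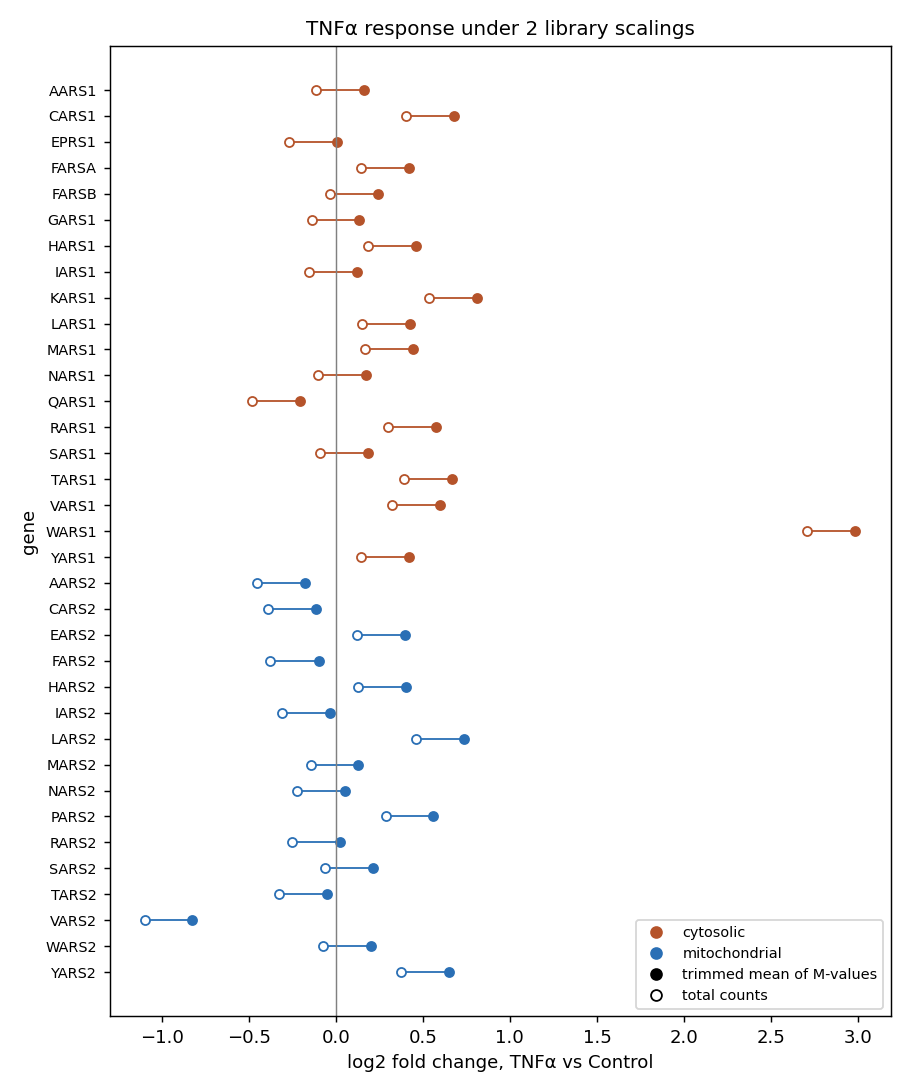
Log2 fold change of each of the 35 genes in TNFα against Control, filled under the trimmed mean of M-values and open under total counts, with cytosolic genes in orange and mitochondrial genes in blue. WARS1 lies far to the right under both scalings, and QARS1 lies below 0 under both. Of the 35 genes 28 lie above 0 under the trimmed mean of M-values and 16 under total counts. Among the genes called under the trimmed mean, AARS1, FARSB, GARS1, IARS1, NARS1 and SARS1 cross 0.

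IL-1β raised 18 of 19 cytosolic genes and lowered 1, and raised 8 of 16 mitochondrial genes and lowered none, while 24.0% of all genes rose and 22.6% fell. Median log2 fold changes were 0.44 for cytosolic and 0.26 for mitochondrial genes. The distance between these medians, 0.18, became 0.08 without Control replicate 1, 0.32 without Control replicate 3 and 0.31 without IL-1β replicate 3. The largest rises were those of weakly expressed mitochondrial genes. PARS2 (chr1:54756898-54764514), the mitochondrial prolyl enzyme, stood at 2.86, 1.71 and 1.91 CPM in Control and 6.45, 6.55 and 6.07 CPM under IL-1β. Its log2 fold change was 1.56 (SE 0.208, adjusted p = 1.02e-07 by edgeR's quasi-likelihood test). MARS2 (chr2:197705369-197708387), the mitochondrial methionyl enzyme, was at 4.23, 6.68 and 3.94 CPM in Control and 13.3, 13.1 and 11.6 CPM under IL-1β, a change of 1.36 (SE 0.164, adjusted p = 1.31e-08, same test). For both genes every IL-1β library lay above every Control library, and neither gene shares exon sequence with a gene on the other strand.
WARS1 was at 117.5, 109.2 and 103.9 CPM under IL-1β, above all Control libraries and below all TNFα libraries. It rose by 0.95 (SE 0.051, adjusted p = 3.14e-17 by edgeR's quasi-likelihood test). VARS1, the cytosolic valyl enzyme, stood at 109.7, 97.3 and 99.2 CPM in Control and 169.1, 177.8 and 187.3 CPM under IL-1β, a rise of 0.81 (SE 0.052, adjusted p = 2.55e-15, same test). QARS1, at 153.6, 147.1 and 157.1 CPM, was again below every Control library and fell by 0.18 (SE 0.047, adjusted p = 0.00171, same test). Other rises included EARS2 (mitochondrial glutamate, 0.63), FARSB (the beta subunit of the cytosolic phenylalanyl enzyme, 0.62), LARS1 (leucine, 0.59) and KARS1 (0.57). Scaling by total counts moved the median of all genes to -0.09 here, and the calls of AARS1, EPRS1 and HARS2 were lost.

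C5a raised 11 of 19 cytosolic and 5 of 16 mitochondrial genes and lowered none, while 11.8% of all genes rose and 10.8% fell. The medians were 0.14 for cytosolic and 0.17 for mitochondrial genes, a difference of -0.03 that became 0.038 without C5a replicate 1 and 0.014 without Control replicate 3. PARS2 led again, at 6.93, 6.25 and 5.88 CPM, above every Control library, with a log2 fold change of 1.56 (SE 0.208, adjusted p = 5.13e-07 by edgeR's quasi-likelihood test). MARS2, at 8.02, 8.95 and 8.34 CPM, was also above every Control library and rose by 0.78 (SE 0.169, adjusted p = 0.000731, same test). VARS1 was at 130.2, 133.6 and 128.7 CPM and rose by 0.37 (SE 0.052, adjusted p = 1.58e-06, same test).
WARS2, the mitochondrial tryptophanyl enzyme, stood at 10.7, 10.9 and 9.45 CPM in Control and 12.8, 14.9 and 12.2 CPM under C5a, without overlap. Its rise of 0.36 (SE 0.109, adjusted p = 0.0129 by edgeR's quasi-likelihood test) did not pass without C5a replicate 2 (0.112) or Control replicate 3 (0.0728). WARS1, at 59.1, 59.1 and 62.9 CPM, had a log2 fold change of 0.08 that did not pass (adjusted p = 0.289, same test). CARS1, HARS1 (histidine), MARS1 (methionine), YARS1 (tyrosine) and LARS2 passed with log2 fold changes of 0.14 to 0.20, and each lost its call when some libraries were left out. Without 1 library, between 12 and 14 of the 35 genes were called in place of 16.

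Epinephrine gave small rises spread over the cytosolic set. It raised 16 of 19 cytosolic and 3 of 16 mitochondrial genes and lowered none, beside 13.5% of all genes that rose and 11.8% that fell. The cytosolic median was 0.23 and the mitochondrial median 0.07. Without epinephrine replicate 2 the number of genes called was again 19. WARS2 was at 13.1, 13.5 and 13.5 CPM, above its Control libraries, and rose by 0.38 (SE 0.109, adjusted p = 0.00885 by edgeR's quasi-likelihood test), with an adjusted p of 0.0526 without Control replicate 3. FARSB stood at 58.7, 59.0 and 61.9 CPM in Control and 75.8, 81.9 and 73.3 CPM under epinephrine, a rise of 0.37 (SE 0.056, adjusted p = 3.60e-06, same test).
IARS1 was at 240.1, 244.1 and 255.5 CPM in Control and 316.9, 292.9 and 317.7 CPM under epinephrine and rose by 0.34 (SE 0.044, adjusted p = 2.50e-07 by edgeR's quasi-likelihood test). LARS1, at 166.5, 164.3 and 173.7 CPM in Control and 209.0, 207.0 and 207.4 CPM under epinephrine, rose by 0.32 (SE 0.044, adjusted p = 9.90e-07, same test). In FARSB, IARS1 and LARS1 the groups did not overlap. The other mitochondrial genes that rose were EARS2 (0.27) and LARS2 (0.21), which did not pass without Control replicate 2 (adjusted p = 0.0568 and 0.0698, same test), EARS2 also not without epinephrine replicate 3 (0.0585). WARS1 did not pass, at 58.9, 59.1 and 63.2 CPM (0.08, adjusted p = 0.272, same test), and PARS2, at 3.10, 3.85 and 2.80 CPM, had a log2 fold change of 0.59 with an adjusted p of 0.0528.

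The 4 stimuli were compared with the same 3 Control libraries, so what their responses have in common includes any deviation of those libraries. Of the mitochondrial genes 7 passed in none of these 4 comparisons: CARS2, FARS2, IARS2, RARS2, SARS2, TARS2 and VARS2. Every cytosolic gene passed in at least 1 of them, as did 69.6% of all genes tested. IARS2, the most abundant mitochondrial gene, had log2 fold changes of -0.03, -0.01, -0.04 and -0.00 under TNFα, IL-1β, C5a and epinephrine.

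**Figure D2:**
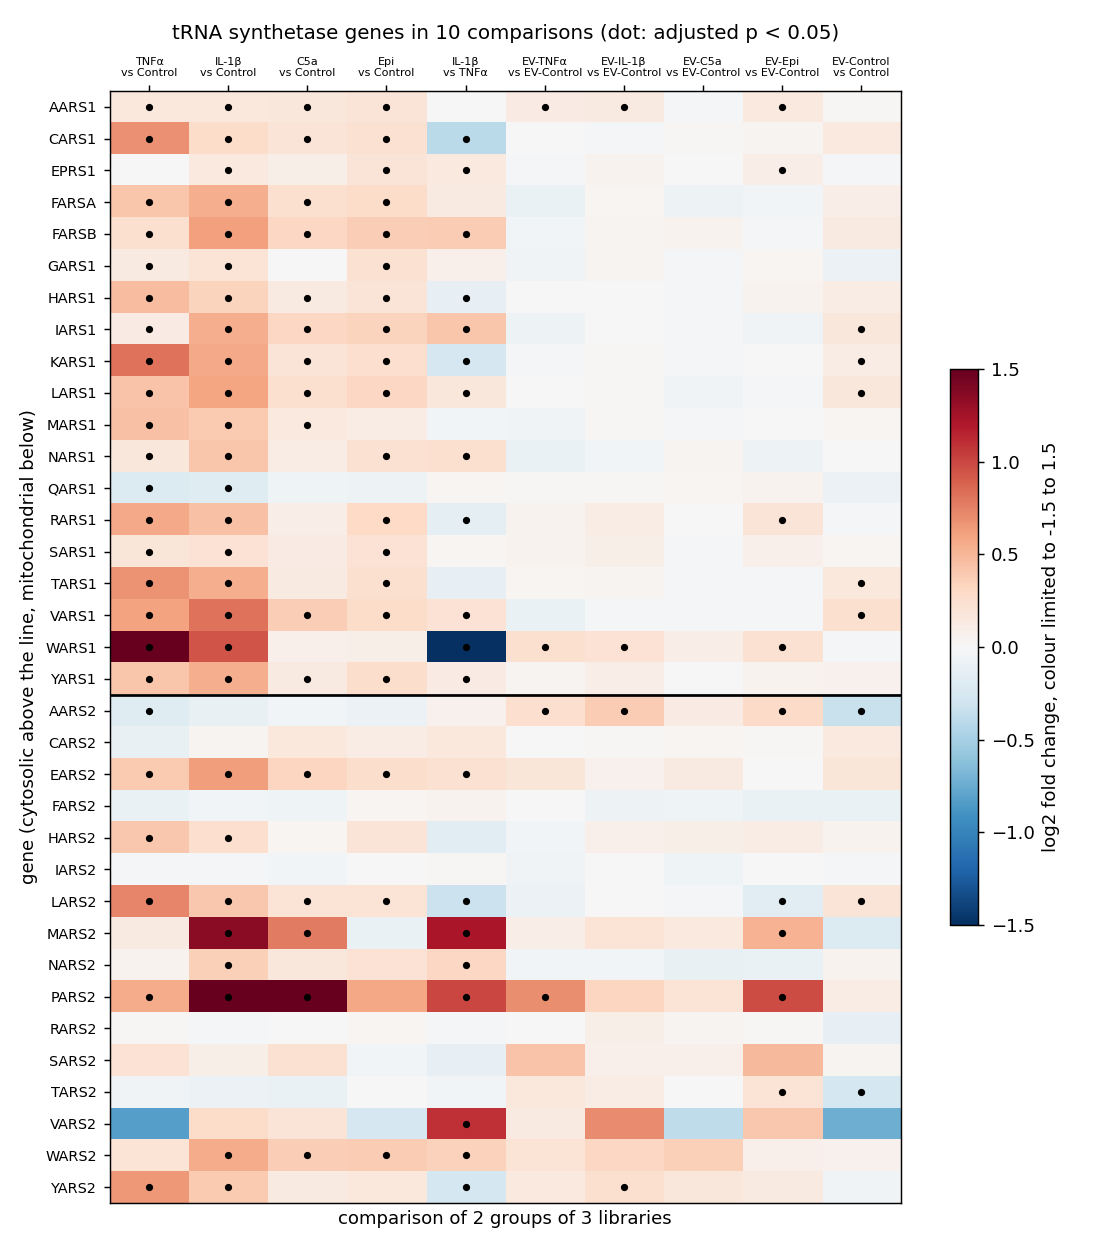
Log2 fold changes of the 35 genes (rows, cytosolic above the line) in 10 comparisons of 2 groups of 3 libraries (columns), with a dot where the adjusted p was under 0.05. The cytosolic rows are red in the TNFα and IL-1β columns except QARS1 and, under TNFα, EPRS1, while the vesicle columns are pale apart from a few mitochondrial genes.

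The 2 cytokines compared with each other share no Control library. Against TNFα, IL-1β left 7 cytosolic genes higher and 5 lower, and 6 mitochondrial genes higher and 2 lower, beside 19.9% and 21.4% of all genes. The widest gap was that of WARS1, at 451.0, 466.2 and 445.7 CPM under TNFα and 117.5, 109.2 and 103.9 CPM under IL-1β. Its log2 fold change was -2.03 (SE 0.049, adjusted p = 1.16e-27 by edgeR's quasi-likelihood test). CARS1, at 53.5, 52.1 and 56.0 CPM under IL-1β, was -0.40 (adjusted p = 6.43e-07, same test), and LARS2, at 70.6, 65.5 and 62.0 CPM, was -0.33 (adjusted p = 2.31e-05, same test).
YARS2 stood at 38.7, 36.6 and 34.1 CPM under TNFα and 28.8, 31.4 and 30.2 CPM under IL-1β, a difference of -0.27 (adjusted p = 0.00391 by edgeR's quasi-likelihood test). In the other direction MARS2, at 7.15, 4.46 and 4.85 CPM under TNFα, was 1.23 higher under IL-1β (SE 0.164, adjusted p = 1.15e-07, same test). PARS2, at 3.27, 2.26 and 4.10 CPM under TNFα, was 1.00 higher (SE 0.199, adjusted p = 9.20e-05, same test). In all of these genes the libraries of the cytokines did not overlap.
IARS1, at 266.9, 262.4 and 274.7 CPM under TNFα and 351.4, 362.7 and 354.6 CPM under IL-1β, was 0.42 higher (adjusted p = 4.63e-10 by edgeR's quasi-likelihood test). VARS2, whose libraries held 0.215 to 1.92 CPM in these groups, was 1.09 higher (SE 0.42, adjusted p = 0.0347, same test), but not without IL-1β replicate 3 (0.183) or TNFα replicate 2 (0.238). Scaling by total counts moved the median of all genes to 0.21 in this comparison, with 76.1% of the called genes higher in place of 48.1%. There 30 of the 35 genes had a log2 fold change above 0, in place of 21. Of the called genes HARS1 and RARS1 changed sign, as did HARS2, and KARS1, LARS2 and YARS2 lost their calls.

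**Figure D3:**
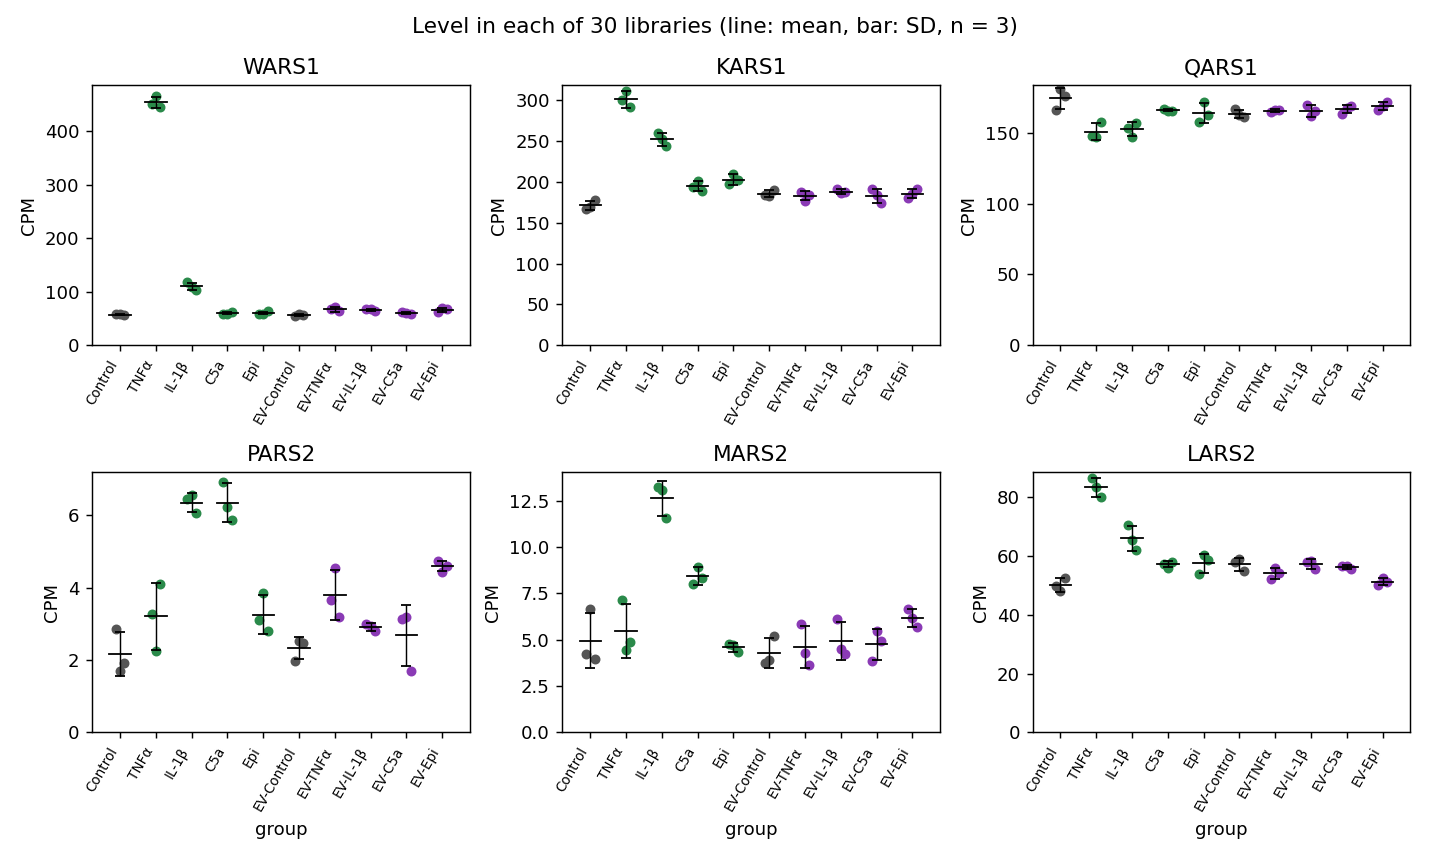
CPM in each of the 30 libraries for WARS1, KARS1, QARS1, PARS2, MARS2 and LARS2, with the mean and SD of the 3 libraries of a group (controls in grey, direct stimuli in green, vesicles in purple). WARS1, KARS1 and LARS2 are highest under TNFα, MARS2 under IL-1β, and PARS2 is about equally high under IL-1β and C5a, with means of 6.36 and 6.35 CPM.

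Summed over the set, cytosolic synthetase RNA was higher than in Control in every library of the 4 direct stimuli and of the 5 vesicle groups. The lowest vesicle library, EV-C5a replicate 3, was at 2674.2 CPM, beside 2672.8 CPM for the highest Control library. EV-Control averaged 2748.0 ± 25.1 CPM (SD, n = 3). The sum was 2633.0 ± 36.9 CPM (SD, n = 3) in Control, 3687.0 ± 13.4 under TNFα, 3466.0 ± 49.3 under IL-1β, 2920.0 ± 35.1 under C5a and 3050.0 ± 63.5 under epinephrine. Without WARS1 the sums were 2576.0, 3233.0, 3356.0, 2860.0 and 2989.0 CPM, so that IL-1β stood above TNFα. The mitochondrial sum was 491.2 ± 9.34 CPM in Control, 543.9 ± 7.88 under TNFα, 543.2 ± 20.1 under IL-1β, 511.8 ± 6.16 under C5a and 514.6 ± 14.4 under epinephrine. All these sums depend on the library scaling. Under total counts the median log2 fold change of the mitochondrial genes for TNFα was -0.18 in place of 0.09. That of the cytosolic genes was 0.15 in place of 0.42.
The ratio of the cytosolic to the mitochondrial sum does not depend on library scaling. It was 5.36 ± 0.135 in Control, 6.78 ± 0.0755 under TNFα, 6.38 ± 0.148 under IL-1β, 5.71 ± 0.138 under C5a and 5.93 ± 0.0702 under epinephrine. This ratio includes WARS1, which averaged 454.3 CPM under TNFα and 57.4 CPM in Control, and a ratio without that gene is not given. Without WARS1 the cytosolic sum was 3356.0 CPM under IL-1β and 3233.0 under TNFα. The mitochondrial sums were 543.2 and 543.9 CPM, so that IL-1β would then stand above TNFα. In the ratio with WARS1 the libraries of each of the 4 stimuli lay above those of Control, whose highest value was 5.46. In the 5 vesicle groups the mean ratio was 5.57 to 5.70, with EV-Control at 5.70 ± 0.0368. Every vesicle library also lay above every Control library in this ratio, the lowest being EV-TNFα replicate 2 at 5.48.

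Amino acid by amino acid, the cytosolic gene was set against its mitochondrial counterpart in 15 pairs, with FARSA and FARSB (the alpha and beta subunits of the cytosolic phenylalanyl enzyme) each set against FARS2. The cytosolic gene had the higher log2 fold change in 12 pairs under TNFα, 14 under IL-1β, 10 under C5a and 14 under epinephrine. The vesicle comparisons gave 4 pairs for EV-TNFα, 5 for EV-IL-1β, 4 for EV-C5a and 7 for EV-epinephrine, and EV-Control against Control gave 11. Under IL-1β the exception was methionine, where MARS1 was 0.40 and MARS2 1.36. Under C5a that pair was again the widest in the opposite direction, at 0.15 and 0.78.

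**Figure D4:**
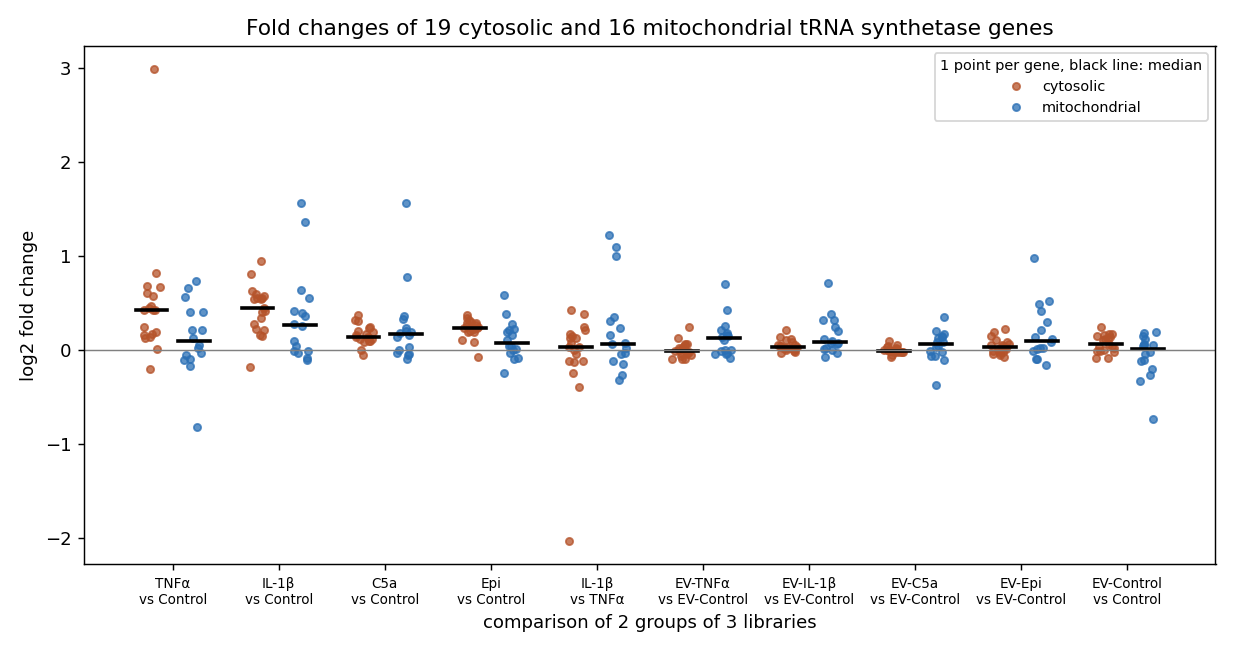
Log2 fold changes of the 19 cytosolic (orange) and 16 mitochondrial (blue) genes in each comparison, 1 point per gene, with the median as a black line. The cytosolic median lies above the mitochondrial one for TNFα (0.42 and 0.09), IL-1β (0.44 and 0.26) and epinephrine (0.23 and 0.07), but not for C5a (0.14 and 0.17), where the sign of the difference turned without C5a replicate 1 or Control replicate 3.

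Within the cytosolic set the 7 enzymes of the multisynthetase complex (EPRS1, IARS1, KARS1, LARS1, MARS1, QARS1 and RARS1) moved in both directions. Under TNFα 5 rose and QARS1 fell, under IL-1β 6 rose and QARS1 fell, under C5a 4 rose and under epinephrine 5 rose, with medians of 0.43, 0.44, 0.15 and 0.26, while the share of all genes that rose was 27.5%, 24.0%, 11.8% and 13.5%. QARS1 had log2 fold changes of -0.06 under C5a and -0.08 under epinephrine, neither of which passed. Of the 3 scaffold genes AIMP2 rose under each stimulus, by 0.36, 0.74, 0.33 and 0.37 in the order TNFα, IL-1β, C5a and epinephrine. EEF1E1 rose under TNFα (0.30) and IL-1β (0.41), and AIMP1 under IL-1β (0.27) and epinephrine (0.17). The 13 cytosolic genes known as ATF4 targets and the 6 outside that list gave like medians, 0.42 and 0.44 under TNFα, 0.41 and 0.49 under IL-1β, 0.14 and 0.17 under C5a and 0.23 and 0.27 under epinephrine. Of the 13, 12, 13, 7 and 11 rose, and of the 6, 5, 5, 4 and 5, beside the same shares of all genes.

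Other genes of the amino acid response are given for comparison. Of 28 such genes 8 rose and 10 fell under TNFα, 9 rose and 10 fell under IL-1β, 7 rose and 8 fell under C5a, and 11 rose and 3 fell under epinephrine, with medians of -0.14, -0.13, -0.04 and 0.17. Over all genes 27.5% rose and 25.3% fell under TNFα, 24.0% and 22.6% under IL-1β, 11.8% and 10.8% under C5a and 13.5% and 11.8% under epinephrine, and nothing particular to the list is read from its counts. ATF4 itself was at 301.5 ± 1.90 CPM (SD, n = 3) in Control and 381.4 ± 8.85 under TNFα, a rise of 0.34 (adjusted p = 7.81e-08 by edgeR's quasi-likelihood test). Under C5a ATF4 fell by 0.24 (adjusted p = 0.000199, same test), and under IL-1β and epinephrine it did not pass (-0.04 and 0.04).
SESN2 and TRIB3, stress-induced targets of ATF4, fell under every stimulus. SESN2 fell by 0.56, 0.82, 0.51 and 0.53 and TRIB3 by 0.33, 0.26, 0.20 and 0.21 in the same order of stimuli. DDIT3, a stress transcription factor whose gene overlaps MARS1 exons on the other strand, fell under IL-1β, by 0.76, while MARS1 rose by 0.40. ASNS, asparagine synthetase, stood at 0.542 CPM in Control and CHAC1, a glutathione-degrading enzyme, at 5.68 CPM. ASNS fell under IL-1β (-1.58, adjusted p = 0.0395 by edgeR's quasi-likelihood test) and CHAC1 under TNFα (-0.45, adjusted p = 0.0456, same test), and neither rose under any of the 4. PSAT1, of serine synthesis, fell by 0.47 under TNFα and rose by 0.23, 0.46 and 0.54 under IL-1β, C5a and epinephrine. The members of the list that rose most under TNFα, named after their values were seen, were STC2 (2.10), the stress factor ATF3 (1.80) and the amino acid transporter gene SLC38A2 (1.03). STC2 and SLC38A2 also rose under IL-1β (0.90 and 0.55) and epinephrine (0.55 and 0.44), SLC38A2 under C5a (0.13), and ATF3 fell under IL-1β (-2.20) and C5a (-2.62) and rose under epinephrine (0.62). XPOT, the tRNA export receptor, was -0.02 under TNFα and rose by 0.45, 0.22 and 0.29 under the other stimuli.

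Interferon-inducible genes rose in the comparisons in which WARS1 rose under a cytokine. Of 20 listed genes 17 were tested. Under TNFα 16 rose and none fell, with a median of 2.24, and under IL-1β 13 rose and none fell, with a median of 0.79. Under C5a none rose and 1 fell, and under epinephrine 2 rose and 7 fell. The shares of all genes that rose and fell under each stimulus are those given above. In the vesicle comparisons 10 rose and 2 fell for EV-TNFα (median 0.40), 9 and 2 for EV-IL-1β (0.38), none for EV-C5a, and 5 and 3 for EV-epinephrine (0.13). Over all genes 5.90% rose and 7.42% fell for EV-TNFα, and 6.49% and 8.14% for EV-IL-1β. The shares were 0.0126% and 0.0377% for EV-C5a and 9.12% and 10.5% for EV-epinephrine. All 17 listed genes tested were lower under IL-1β than under TNFα, beside 21.4% of all genes. IRF1, the transcription factor, rose by 3.17 under TNFα, 0.82 under IL-1β and 1.14 under epinephrine, where WARS1 did not pass. IDO1, a tryptophan-degrading enzyme, rose from 0.144 CPM in Control to 4.30 CPM under TNFα.
Other parts of the translation apparatus were counted beside the synthetases, to be read against the shares of all genes given above for each stimulus. Of 6 cytosolic elongation factor genes 5 were tested, and 5 rose under TNFα, 5 under IL-1β, 1 under C5a and 4 under epinephrine. Of 13 mitochondrial translation factors 6 rose and 1 fell under each of TNFα and IL-1β, 1 rose under C5a and 5 under epinephrine. Of 13 genes of tRNA editing and processing 4 rose and 1 fell under TNFα, and 5, 2 and 3 rose under the other stimuli.

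Against EV-Control, WARS1 and AARS2 were higher with vesicles from cells treated with TNFα, IL-1β and epinephrine. AARS2 averaged 28.6 CPM in EV-Control and 36.08 in Control, beside 34.12 in EV-TNFα, 37.27 in EV-IL-1β and 35.02 in EV-epinephrine. Its libraries in these stimulated vesicle groups overlapped those of Control, at 33.97 to 39.79 CPM. A rise of AARS2 above Control was not tested in them. EV-TNFα raised 4 of the 35 genes and lowered none against EV-Control (2 cytosolic and 2 mitochondrial), while 5.90% of all genes rose and 7.42% fell. WARS1 was at 55.3, 58.6 and 56.6 CPM in EV-Control and 67.0, 71.6 and 63.3 CPM in EV-TNFα, without overlap, a rise of 0.24 (SE 0.056, adjusted p = 0.00132 by edgeR's quasi-likelihood test). AARS1, the cytosolic alanyl enzyme, was at 246.9, 250.3 and 268.2 CPM in EV-Control and 283.7, 273.9 and 278.8 CPM in EV-TNFα and rose by 0.13 (adjusted p = 0.00892, same test). AARS2 stood at 24.3, 30.3 and 31.3 CPM in EV-Control and 34.2, 34.0 and 34.2 CPM in EV-TNFα, a rise of 0.25 (adjusted p = 0.0192, same test).
EV-Control replicate 1 was the low library for AARS2, and without it the rise was 0.15 (adjusted p = 0.267 by edgeR's quasi-likelihood test), as it was 0.25 (0.0579) without EV-TNFα replicate 1. PARS2, at 1.98, 2.54 and 2.46 CPM in EV-Control and 3.66, 4.55 and 3.18 CPM in EV-TNFα, rose by 0.70 (SE 0.221, adjusted p = 0.0242, same test). The call of PARS2 was lost without EV-Control replicate 1 (0.115), EV-TNFα replicate 1 (0.0511) or EV-TNFα replicate 2 (0.164), and that of AARS1 without EV-Control replicate 1 (0.0676), EV-Control replicate 2 (0.0549) or EV-TNFα replicate 1 (0.0596). Without EV-Control replicate 1 or without EV-TNFα replicate 1, 2 genes were called in place of 4.

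EV-IL-1β also raised 4 genes and lowered none, beside 6.49% of all genes higher and 8.14% lower. AARS2, at 39.3, 35.01 and 37.5 CPM, rose by 0.38 (SE 0.076, adjusted p = 0.000215 by edgeR's quasi-likelihood test), WARS1, at 67.0, 67.3 and 63.7 CPM, by 0.21 (SE 0.056, adjusted p = 0.00493, same test) and AARS1, at 284.9, 285.5 and 270.8 CPM, by 0.13 (SE 0.035, adjusted p = 0.00459, same test). Each of these groups lay above its EV-Control libraries. YARS2, at 26.7, 27.0 and 26.0 CPM against 22.6, 21.1 and 23.4 CPM in EV-Control, rose by 0.25 (SE 0.085, adjusted p = 0.0416, same test). That call was lost without EV-Control replicate 1 (0.0724) or 2 (0.180) or without EV-IL-1β replicate 1 (0.102), 2 (0.120) or 3 (0.0676).
EV-C5a changed none of the 35 genes by edgeR's quasi-likelihood test or by DESeq2, beside 0.0126% of all genes higher and 0.0377% lower. At an unadjusted p under 0.05 edgeR gave 2 of the 35 genes, WARS2 and YARS2, and DESeq2 gave 1, WARS2. The share of all genes under that cut is not given here, so nothing is read from these counts. WARS2 was at 12.4, 10.8 and 9.36 CPM in EV-Control and 14.5, 14.2 and 12.7 CPM in EV-C5a (0.35, adjusted p = 0.355 by edgeR's quasi-likelihood test). PARS2, which rose under C5a itself, was at 3.14, 3.20 and 1.70 CPM in EV-C5a, overlapping EV-Control (0.20, adjusted p = 0.907, same test). WARS1 was 0.10 (adjusted p = 0.726, same test).

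EV-epinephrine raised 8 genes, 4 of them mitochondrial, and lowered 1, beside 9.12% of all genes higher and 10.5% lower. PARS2, at 4.73, 4.45 and 4.61 CPM, lay above every EV-Control library and rose by 0.98 (SE 0.218, adjusted p = 0.00058 by edgeR's quasi-likelihood test). MARS2, at 6.65, 6.16 and 5.66 CPM against 3.72, 3.92 and 5.20 CPM, rose by 0.52 (SE 0.184, adjusted p = 0.0361, same test). AARS2, at 36.3, 35.8 and 33.0 CPM, rose by 0.29 (SE 0.076, adjusted p = 0.00351, same test).
WARS1, at 62.2, 70.0 and 66.9 CPM, rose by 0.23 (SE 0.056, adjusted p = 0.00211 by edgeR's quasi-likelihood test). LARS2, the gene that fell, was at 58.0, 59.1 and 54.8 CPM in EV-Control and 50.1, 52.5 and 51.3 CPM in EV-epinephrine, a fall of 0.16 (SE 0.055, adjusted p = 0.0342, same test). AARS1, RARS1, EPRS1 and TARS2 rose by 0.15, 0.19, 0.10 and 0.21. The rise of AARS2 did not pass without EV-Control replicate 1 (0.0960), and those of MARS2, EPRS1 and TARS2 and the fall of LARS2 did not pass without several of the libraries, with adjusted p-values of 0.0768 to 0.148. Without EV-Control replicate 1, EV-Control replicate 2 or EV-epinephrine replicate 1, 5 genes were called in place of 9. The 4 vesicle comparisons share the 3 EV-Control libraries.

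Vesicles from unstimulated cells were compared with no vesicles (EV-Control against Control, in the fit of all 30 libraries). Of the cytosolic genes 5 rose, and of the mitochondrial genes 1 rose and 2 fell, beside 12.1% of all genes higher and 9.80% lower. All 8 endothelial markers fell in the same comparison, with a median of -0.63, and their part was not tested. VARS1, at 112.9, 126.4 and 123.7 CPM in EV-Control, rose by 0.25 (SE 0.049, adjusted p = 8.90e-05 by edgeR's quasi-likelihood test). IARS1, at 276.5, 277.5 and 278.9 CPM, rose by 0.17 (adjusted p = 0.000487, same test), and LARS1, at 187.1, 188.3 and 191.5 CPM, by 0.17 (adjusted p = 0.00173, same test).
LARS2 rose by 0.19 (adjusted p = 0.00968 by edgeR's quasi-likelihood test), but not without Control replicate 2 (0.0636). TARS1 (0.15) and KARS1 (0.12) also rose, TARS1 not without Control replicate 1 (0.0594) or 2 (0.0598), and KARS1 not without Control replicate 1 (0.125), Control replicate 2 (0.104) or EV-Control replicate 3 (0.138). The falls were those of AARS2, by 0.33 (SE 0.076, adjusted p = 0.000606, same test), and TARS2, the mitochondrial threonyl enzyme. TARS2 was at 51.1, 49.3 and 48.6 CPM in Control and 41.8, 39.5 and 42.4 CPM in EV-Control, without overlap, a fall of 0.27 (SE 0.068, adjusted p = 0.00211, same test). WARS1 was -0.02 (adjusted p = 0.885, same test). Without Control replicate 2, 5 genes were called in place of 8, and scaling by total counts lowered the share of called genes that were higher from 55.3% to 42.6%.

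Whether a vesicle response differed from the response to its own stimulus was tested as the difference of the 2 log2 fold changes, in which all 4 tests share the Control and EV-Control libraries. For TNFα the vesicle response was lower in 15 cytosolic and 3 mitochondrial genes and higher in 1 of each, beside 23.4% of all genes lower and 21.3% higher. For IL-1β it was lower in 15 and 5 and higher in 1 of each, beside 18.3% lower and 16.9% higher. For C5a it was lower in 7 and 1 and higher in none, beside 6.05% of all genes lower and 5.87% higher, and for epinephrine lower in 10 and 1 and higher in 1 mitochondrial gene, beside 12.5% lower and 11.7% higher.
The largest difference was that of WARS1 for TNFα, -2.74 (SE 0.073, adjusted p = 9.17e-40 by edgeR's quasi-likelihood test), followed by KARS1 at -0.83 and LARS2 at -0.82. For IL-1β PARS2 was -1.23 (SE 0.314), MARS2 -1.14 (SE 0.259) and VARS1 -0.81 (SE 0.068), and for C5a PARS2 was -1.35 (SE 0.314), VARS1 -0.37 and IARS1 -0.32. For epinephrine IARS1 was -0.39, FARSB -0.38 and LARS2 -0.36. WARS1 differed for IL-1β (-0.72, adjusted p = 2.85e-12, same test) but did not pass for C5a (0.02) or epinephrine (0.15). The genes higher in the vesicle response were AARS2 for TNFα (0.43), IL-1β (0.50) and epinephrine (0.39) and QARS1 for TNFα (0.23) and IL-1β (0.21). Without EV-Control replicate 1 the AARS2 difference for epinephrine was 0.28 (adjusted p = 0.0518, same test). For TNFα, scaling by total counts moved the median of all genes to 0.31, under which FARSB, GARS1, IARS1 and NARS1 changed sign.

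Across the 10 groups WARS1 had the order TNFα (454.3 ± 10.6 CPM, SD, n = 3), IL-1β (110.2 ± 6.83), EV-TNFα (67.3 ± 4.16), EV-epinephrine (66.4 ± 3.93), EV-IL-1β (66.0 ± 2.05), EV-C5a (60.7 ± 1.84), epinephrine (60.4 ± 2.47), C5a (60.4 ± 2.21), Control (57.4 ± 0.6) and EV-Control (56.8 ± 1.66). TNFα and IL-1β each stood apart from the next group, while the 3 vesicle groups that follow overlapped one another, as did EV-C5a with epinephrine, epinephrine with C5a, and Control with EV-Control. QARS1 had Control highest (174.2 ± 7.56 CPM) and IL-1β (152.6 ± 5.09) and TNFα (150.8 ± 5.95) lowest. Those lowest groups overlapped each other and lay below EV-Control (163.3 ± 2.81), the next group up, and the 8 other groups formed a chain of overlapping neighbours. PARS2 was highest under IL-1β and C5a, which overlapped, and then in EV-epinephrine (4.59 ± 0.139 CPM), with Control lowest (2.16 ± 0.613).

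HARS1 and HARS2, the cytosolic and mitochondrial histidyl enzymes, lie head to head on chromosome 5, with RefSeq starts at 140691370 (HARS1, minus strand) and 140691455 (HARS2, plus strand), 84 bases apart. HARS1 was at 86.6, 87.0 and 85.1 CPM in Control and 118.2, 116.5 and 121.5 CPM under TNFα, and HARS2 at 25.8, 25.6 and 26.4 CPM and 33.7, 35.4 and 33.9 CPM. Both rose under TNFα, by 0.46 and 0.40, and under IL-1β, by 0.34 and 0.25. Under C5a HARS1 rose by 0.14 and HARS2 was 0.03, and under epinephrine HARS1 rose by 0.19 and HARS2, also at 0.19, did not pass (adjusted p = 0.0659 by edgeR's quasi-likelihood test). The HARS1 call under C5a was lost without any 1 of the 6 libraries, with adjusted p-values of 0.0705 to 0.104. Between the cytokines HARS1 was -0.13 and passed, and HARS2 was -0.16 and did not.
In the 4 vesicle comparisons neither gene passed, with log2 fold changes of -0.01, 0.01, -0.02 and 0.06 for HARS1 and -0.04, 0.08, 0.08 and 0.11 for HARS2, nor in EV-Control against Control (0.12 and 0.05). The difference between vesicle and direct response passed for both genes for TNFα (-0.47 and -0.44) and for HARS1 for IL-1β (-0.31, beside -0.16 for HARS2), and for neither for C5a (-0.15 and 0.06) or epinephrine (-0.13 and -0.07). The exons of the genes overlap in GENCODE 29, so reads of one can be counted to the other where counting ignores strand. WDR55, which also overlaps HARS1, rose by 0.46 under TNFα.

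In all, 16 of the 35 genes share exon sequence with a gene on the other strand, and the sources used here do not say whether counting used the strand. Among the lead genes these are WARS1, KARS1, CARS1, LARS1, AARS2, WARS2, HARS1 and HARS2, and not QARS1, PARS2, MARS2, LARS2, VARS1, IARS1 or FARSB. On the same strand 6 of the 35 genes share exon sequence with another gene, which counting by strand would not separate. They are MARS1, QARS1 (with MIR6890), HARS2 (with ZMAT2), SARS2, TARS2 (with MIR6878) and VARS2 (with GTF2H4). EARS2, which rose by 0.40, 0.63, 0.33 and 0.27 under TNFα, IL-1β, C5a and epinephrine, overlaps UBFD1, at 130.5 CPM in Control beside 20.5 CPM for EARS2. UBFD1 rose by 0.19 under TNFα and did not pass under the other stimuli (0.07, -0.07 and -0.03).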

How the data were processed

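The authors deposited 1 table of raw read counts per gene for all 30 libraries. The submitters' processing notes name the build hg38 and STAR, FastQC, R 4.4.1 and DESeq2, and the role of each tool, the counting program, its annotation and its use of strand are not given in the sources used here. Per the labels' protocols, RNA was column-purified and libraries were made with a NEBNext Ultra kit. Of 63147 lines 4 held no gene identifier (at most 0.00164% of a library's counts) and 2 no counts, and 3 repeats of a gene were identical and removed, which left 63138 genes and 16643961 to 22112326 counts per library. These deposited counts were filtered with filterByExpr, given TMM scaling factors and tested with edgeR 4.0.16 (quasi-likelihood, robust, two-sided, Benjamini-Hochberg) in R 4.3.3. The 15 direct libraries (15908 genes) and the 15 vesicle libraries (15918 genes) were fitted separately, and all 30 (16691 genes) together for EV-Control against Control and for the differences between vesicle and direct responses. CPM values use 1 scaling over all 30 libraries, and CPM per kb uses the union of exons in GENCODE 29. The procedure was tested on simulated data.

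The members and gene lists were chosen with earlier results of these data known, so lists are described by counts and medians with no test. Named with library values were up to 4 members with the largest called rise and up to 4 with the largest called fall per comparison, up to 3 each way per difference of responses, and WARS1, HARS1 and HARS2 throughout. Of the genes outside the members chosen for values, 1 is not reported here. The 30 pairs of libraries within a group differed by 2.04 to 12.9 in chi-square per gene, above the 1 that sampling noise alone gives, and were kept as separate samples. Alternatives were DESeq2 1.42.0, other scalings and filters, other sets of fitted libraries, a replicate block and leaving out each library.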

Additional observations from a re-analysis of the deposited data

Results flagged for a closer look

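The 17 values below are those named by rule, at most 3 in each direction for each stimulus, of the 20 genes that passed for TNFα, 22 for IL-1β, 8 for C5a and 12 for epinephrine. In each the test of the difference itself, by edgeR's quasi-likelihood test in the fit of all 30 libraries, separated the response to vesicles from the response to the stimulus. Values are vesicle minus direct log2 fold changes, and all of them share the Control and EV-Control libraries. For TNFα the difference was -2.74 in WARS1, -0.832 in KARS1 and -0.817 in LARS2, and 0.428 in AARS2 and 0.227 in QARS1. For IL-1β it was -1.231 in PARS2, -1.143 in MARS2 and -0.814 in VARS1, and 0.495 in AARS2 and 0.21 in QARS1. For C5a it was -1.348 in PARS2, -0.371 in VARS1 and -0.323 in IARS1. For epinephrine it was -0.386 in IARS1, -0.376 in FARSB and -0.36 in LARS2, and 0.39 in AARS2. The AARS2 values rest in part on EV-Control, where replicate 1 stood at 24.3 CPM beside 30.3 and 31.3 CPM, and without that library the epinephrine difference was 0.28 (adjusted p = 0.0518). Groups of 3 libraries are too small to single out an outlying library by its distance from the others.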

How the results depend on the processing

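Values were recomputed under other settings for the called genes of each comparison, and for WARS1, HARS1 and HARS2 throughout. Of these values 3130 kept their direction and their side of the threshold, 146 lost and 4 gained a call, and 22 changed sign. The sign changes named below are of these values only. Over all 35 genes, total counts moved the number above 0 from 28 to 16 for TNFα. It moved from 21 to 30 for IL-1β against TNFα and from 9 to 21 for the TNFα vesicle minus direct difference. Under total counts the sign changed for TNFα in AARS1 (-0.115), FARSB (-0.032), GARS1 (-0.139), IARS1 (-0.156), NARS1 (-0.105) and SARS1 (-0.091), for IL-1β against TNFα in HARS1 (0.068), RARS1 (0.059) and HARS2 (0.039), for EV-TNFα in HARS1 (0.006), and for the TNFα vesicle minus direct difference in FARSB (0.003), GARS1 (0.108), IARS1 (0.099) and NARS1 (0.025). These follow from the scaling itself, which shifts all genes alike. The other sign changes, whose cause was not tested, came from leaving out 1 library: HARS1 ran from -0.034 to 0.011 for EV-TNFα and -0.069 to 0.025 for EV-C5a, WARS1 from -0.031 to 0.011 for EV-Control against Control, and for the C5a difference WARS1 from -0.014 to 0.042 and HARS2 from -0.003 to 0.078.

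With a required log2 fold change above 0.5 in size, which is stricter by construction, 9 of the 35 genes were called for TNFα, 13 for IL-1β, 2 for C5a, 0 for epinephrine, 4 for IL-1β against TNFα, 1 for EV-TNFα, 0 for EV-IL-1β, 2 for EV-epinephrine and 0 for EV-Control, beside 4409, 3189, 972, 1004, 2732, 638, 665 and 898 of all 15908 (direct) or 15918 (vesicle) genes in the same order and 1042 of 16691 for EV-Control. Restricting to genes with a mean of at least 50 counts gave a cytosolic minus mitochondrial median of 0.29 for TNFα, 0.127 for epinephrine and 0.017 for EV-Control. Without 1 library in turn, called genes numbered 22 to 23 for TNFα, 27 for IL-1β, 12 to 14 for C5a, 17 to 20 for epinephrine, 16 to 20 for IL-1β against TNFα, 2 to 4 for EV-TNFα, 3 to 5 for EV-IL-1β, 5 to 9 for EV-epinephrine and 5 to 9 for EV-Control. The median difference then ran from 0.286 to 0.392 for TNFα, 0.083 to 0.317 for IL-1β, -0.04 to 0.038 for C5a, 0.121 to 0.156 for epinephrine, -0.067 to -0.005 for IL-1β against TNFα, -0.145 to -0.059 for EV-TNFα, -0.092 to -0.033 for EV-IL-1β, -0.105 to -0.036 for EV-C5a, -0.112 to -0.015 for EV-epinephrine and 0.032 to 0.096 for EV-Control. The sign for C5a was thus not fixed by these libraries.

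Same-numbered libraries did not deviate together (correlations of -0.0393 to 0.0259 within the 10 comparisons of 2 groups). A replicate block called 24 genes for TNFα, 27 for IL-1β, 15 for C5a, 19 for epinephrine, 21 for IL-1β against TNFα, 4 for EV-TNFα, 4 for EV-IL-1β, 0 for EV-C5a, 9 for EV-epinephrine and 8 for EV-Control. Among the called and named genes it ended the call of HARS1 for C5a, and for IL-1β against TNFα it added 1 call. Depth limits the weakest genes most: VARS2, PARS2, SARS2 and MARS2 have the widest errors.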
